A study of Mus musculus with 6 samples.

Results

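This report describes the zinc finger genes of mouse whose symbol is Zfp followed only by digits and whose level averaged at least 1 FPKM, a unit that divides fragments by exon length and by library size, over the 6 cerebellar RNA-seq libraries of the study. The files list 358 symbols of that form among 24537 genes, and 155 of them reached the minimum. The genes were chosen by their mean level over all libraries, so these levels are a description. The comparison between genotypes was not used in choosing them. The cerebella were of males 6 weeks old. Of the libraries, 3 were labelled HET, heterozygous for a null allele of Reln (the reelin gene), with strain Orl/BalbC, and 3 were labelled wild type (WT), with strain C57BL/6. Genotype and labelled strain differ together in every library and cannot be told apart. Whether each library is a different animal is not stated in the labels, so p-values concern the spread between these libraries. Those from limma, a linear model that pools this spread over genes, rest mostly on tested genes of like level.

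Most Zfp genes encode proteins with repeated C2H2 zinc fingers, small folds in which a pair of cysteines and a pair of histidines hold a zinc ion and the fold contacts DNA or RNA. In many of them a KRAB domain at the start of the protein recruits the corepressor Trim28 (KAP1), which brings the histone methyltransferase Setdb1 and heterochromatin proteins and silences retroelements and selected genes. KRAB zinc finger genes lie in chromosomal clusters that grew by tandem duplication and differ in content between mouse strains. The symbol also covers unrelated proteins with other kinds of zinc finger, such as Zfp36 (tristetraprolin), which binds AU-rich mRNA and promotes its decay.

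The coding sequence of a single finger shows the pattern that most of these genes share. Units of 78 bases are shown for 5 members above 4 FPKM: Zfp260, Zfp422 and Zfp612 are among the 10 highest, Zfp871 is the highest with a clear KRAB match, and Zfp617 shares much of its sequence with another gene. Each runs from the first cysteine codon of a finger to the end of the conserved linker that follows it. The sequences are from transcripts of GENCODE M21 on GRCm38 (mm10), and the capitals mark the 15 bases of the linker. In each gene the first finger followed by the linker in its consensus form was taken, so its presence in all 5 units comes from that choice.
Zfp260: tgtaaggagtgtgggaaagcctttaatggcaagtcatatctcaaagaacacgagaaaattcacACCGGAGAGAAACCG
Zfp422: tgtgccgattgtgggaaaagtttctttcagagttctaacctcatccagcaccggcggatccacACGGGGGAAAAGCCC
Zfp612: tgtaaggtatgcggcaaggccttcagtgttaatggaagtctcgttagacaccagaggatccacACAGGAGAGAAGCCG
Zfp871: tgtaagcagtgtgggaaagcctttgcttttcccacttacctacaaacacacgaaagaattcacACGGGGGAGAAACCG
Zfp617: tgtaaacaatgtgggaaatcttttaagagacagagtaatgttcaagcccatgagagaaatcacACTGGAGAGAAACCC
Between these units 39 bases of 78 were identical for Zfp422 and Zfp617, the least alike pair, and 58 for Zfp260 and Zfp871, the most alike. The linker in its consensus form was present at least 1 time in 109 of the 155 coding sequences.

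Levels were low throughout. The median member stood at 1.84 FPKM, against 2.74 FPKM for the 6358 genes of any name that reached the same minimum and were tested, and the quartiles of the members were 1.37 and 3.10 FPKM. Only 69 members reached 2 FPKM, 40 reached 3 FPKM, 16 reached 5 FPKM and 1 reached 10 FPKM. At the depth of the libraries, which the steps between low values put at about 22890000 to 28610000 reads, 1 FPKM on 1 kilobase of transcript corresponds to 22.9 to 28.6 reads. Taking the longest coding transcript of each gene, a member had about 23.8 to 1129.6 reads in its lowest library, with a median of 149.2, and counting error alone was 2.98% to 20.5% of the value there. These read numbers are approximate, and they leave out the spread between libraries. The 4 members nearest the minimum were Zfp65 (1.02 FPKM), Zfp189 (1.02 FPKM), Zfp300 (1.02 FPKM) and Zfp626 (1.00 FPKM), and the 4 symbols just under it were Zfp961 (0.989 FPKM), Zfp282 (0.986 FPKM), Zfp930 (0.975 FPKM) and Zfp605 (0.971 FPKM).

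**Figure D1:**
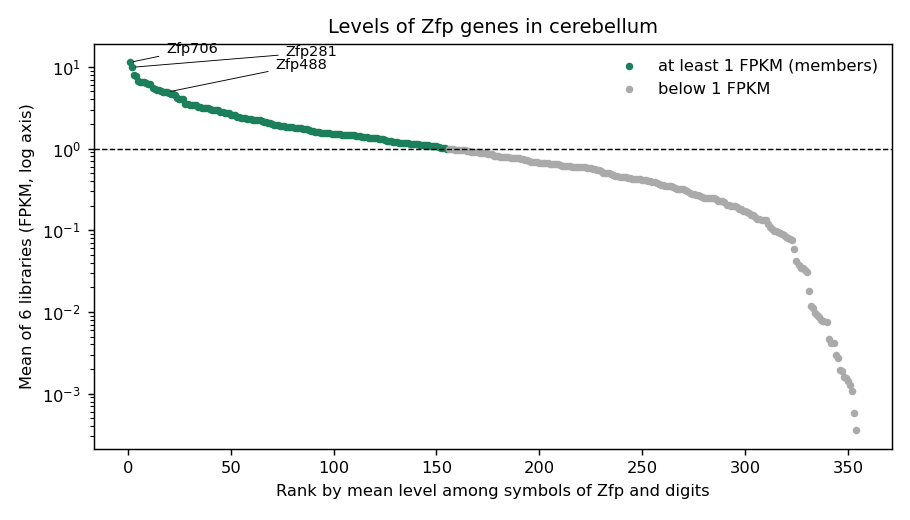
Mean level over the 6 libraries (FPKM, log axis) of each symbol of Zfp and digits, by rank; 155 members lie at or above the dashed line at 1 FPKM and 203 symbols below it, of which 4 that are at 0 in every library are not drawn. The curve falls without a gap at the minimum, from Zfp706 at 11.4 FPKM.

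Zfp706, a very small protein with a single finger that represses Klf4 in mouse embryonic stem cells, was the most abundant member. Its level was 11.4, 13.6 and 10.8 FPKM in HET replicates 1, 2 and 3, and 11.6, 9.28 and 11.4 FPKM in WT replicates 1, 2 and 3. The groups overlapped, with WT replicate 2 lowest and HET replicate 2 highest. Zfp281, a regulator of pluripotency that binds GC-rich DNA, came next at 9.33, 9.63 and 9.99 FPKM in HET and 10.6, 8.95 and 10.8 FPKM in WT. The ranges of these 2 genes over the libraries overlapped, but within every library Zfp706 was above Zfp281. The following 8 were Zfp260 (7.92 FPKM), Zfp422 (7.81 FPKM), Zfp24 (6.71 FPKM), Zfp768 (6.61 FPKM), Zfp207 (6.55 FPKM), Zfp612 (6.55 FPKM), Zfp740 (6.33 FPKM) and Zfp91 (6.19 FPKM). Zfp260 acts in cardiac gene control downstream of adrenergic signalling, Zfp24 is needed for the maturation of myelinating oligodendrocytes, Zfp207 (BuGZ) acts in spindle assembly and Zfp91 is a ubiquitin ligase. The lowest and highest library of each of these 8 genes overlapped with those of its neighbours in the order.

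Promoters are shown for 3 members on which the later values turn or which differ in base composition: Zfp281, Zfp260 and Zfp488, whose level varied most between libraries. The sequences are from RefSeq on GRCm38.p6, from 250 bases before to 50 bases after an annotated start. Capitals mark matches on either strand to any of 6 short motifs. ETS factors were searched with the letters CCGGAAG. The GC box bound by Sp and Klf factors was searched as GGGCGG. The cyclic AMP response element (CRE) was searched as TGACGTCA and the YY1 site as AAGATGGC. The TATA box was searched with the letters TATAAA. The last motif was the box known by its letters CCAAT, bound by NF-Y.
Zfp281, chr1:136624651-136624950, plus strand: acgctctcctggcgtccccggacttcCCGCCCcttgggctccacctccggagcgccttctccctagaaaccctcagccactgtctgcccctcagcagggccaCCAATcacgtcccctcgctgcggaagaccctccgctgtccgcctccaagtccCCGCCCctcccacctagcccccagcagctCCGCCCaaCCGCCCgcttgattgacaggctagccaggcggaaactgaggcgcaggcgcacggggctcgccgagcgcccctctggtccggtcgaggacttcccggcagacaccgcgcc
Zfp260, chr7:30094826-30095125, plus strand: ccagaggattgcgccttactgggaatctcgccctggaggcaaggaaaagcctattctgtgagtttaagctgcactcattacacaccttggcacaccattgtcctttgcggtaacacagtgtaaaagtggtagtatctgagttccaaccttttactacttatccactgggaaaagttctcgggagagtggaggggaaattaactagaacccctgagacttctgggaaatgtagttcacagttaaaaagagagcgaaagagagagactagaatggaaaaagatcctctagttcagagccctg
Zfp488, chr14:33978715-33979014, minus strand: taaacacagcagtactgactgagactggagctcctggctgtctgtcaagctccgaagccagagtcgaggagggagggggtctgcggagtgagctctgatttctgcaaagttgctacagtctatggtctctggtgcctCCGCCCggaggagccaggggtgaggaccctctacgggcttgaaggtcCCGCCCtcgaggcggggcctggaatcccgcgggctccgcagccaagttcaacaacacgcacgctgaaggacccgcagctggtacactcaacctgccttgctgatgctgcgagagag
Zfp281 held 27 CpG dinucleotides in this window, Zfp260 held 5 and Zfp488 held 16. Zfp281 had 4 matches to the GC box and 1 to CCAAT, Zfp488 had 2 to the GC box, and Zfp260 had none of the letters searched. The Zfp260 window lies wholly inside the gene as GENCODE M21 places it (30094777 to 30107622). It therefore leaves out the bases before the first start there, and its composition need not be that of the main promoter.

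A promoter was found by symbol for 136 of the 155 members, using the first start listed. The GC box letters were in 45.6% of member promoters, in 67.2% of those of 4925 tested genes and in 35.9% of the promoters of all 26739 symbols in the table. ETS letters were in 16.9% of member promoters, against 21.3% of those of tested genes and 9.15% of all. CCAAT was in 45.6% of member promoters, against 39.7% and 37.8%, and the TATA letters were in 9.56%, against 6.48% and 14.1%. The YY1 letters were in 7.35%, against 5.75% and 2.88%, and the CRE letters in 3.68%, against 3.78% and 1.79%. The median number of CpG was 16 in members, 22 in tested genes and 7 in all promoters. A match is only a description of these letters in this window.

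The coding sequences of all 155 members were read as the longest open frame of a GENCODE coding transcript. At least 1 finger of the C2H2 pattern was found in 151 of them, 48 with and 103 without a KRAB A box by the pattern used here, and none in the remaining 4 (Zfp36, Zfp330, Zfp365 and Zfp703). A shorter KRAB pattern, added after the data were examined, was found in 64 members. The number of fingers was highest in Zfp142, with 36, and the median was 12 in KRAB members and 9 in members with fingers and no KRAB match.

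Genes with a KRAB match were less well represented among the expressed genes. Of the 139 Zfp symbols with fingers and a KRAB match, 48 (34.5%) reached 1 FPKM, and of the 203 with fingers and no KRAB match 103 (50.7%) did. By the shorter pattern the shares were 35.0% of 183 and 53.2% of 171. Among members, those with a KRAB match by the longer pattern had a median of 1.54 FPKM and a highest value of 4.55 FPKM (Zfp871). Members with fingers and no KRAB match had a median of 2.07 FPKM and held the 10 highest levels. By the shorter pattern Zfp612 counted as a KRAB gene, so that 9 of those 10 did not. Members matching the shorter pattern had a median of 1.76 FPKM and a highest value of 6.55 FPKM, and the 91 others a median of 1.95 FPKM. The gap in level between the classes thus depended on the pattern. Levels chose the members, so these values are given with no test.

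**Figure D2:**
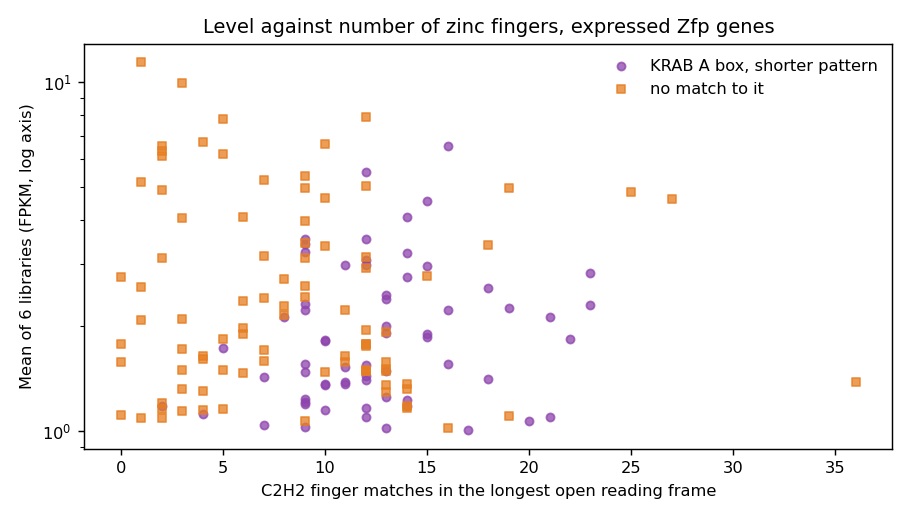
Mean level over the 6 libraries (FPKM, log axis) of the 155 members against the number of C2H2 finger matches in the coding sequence; circles match the shorter KRAB pattern, squares do not. Zfp706 with 1 finger stands highest at 11.4 FPKM and Zfp142 with 36 fingers stands at 1.38 FPKM.

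Position was uneven over the genome. Chromosome 7 held 46 members (29.7%), against 7.72% of tested genes with a position, followed by chromosome 8 with 14 and chromosome 17 with 12. The Zfp symbols of any level were uneven too, so this is not particular to the expressed ones. Chromosome 7 held 89 of these symbols, chromosome 8 held 24 and chromosome 17 held 41. Chromosome 13 held 32, of which 7 were members. When members whose starts lay within 500 kb of the next were joined, 92 of the 155 fell into 26 runs and 63 stood alone. The largest runs held 8 members each. One on chromosome 17 (32765496 to 33631779, mm10) ran from Zfp871 to Zfp414, and 2 on chromosome 7 ran from Zfp180 to Zfp428 (24081924 to 24515682) and from Zfp84 to Zfp146 (29768552 to 30169750). Members in runs had a median of 1.81 FPKM and members alone 1.97 FPKM. The run on chromosome 7 with Zfp553, Zfp768, Zfp747, Zfp764, Zfp688, Zfp629 and Zfp646 (127233061 to 127885996) had the highest median of the runs of 4 or more, 4.61 FPKM.

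Sequence shared with other genes limits what a level can say. For each member the share of 73-base windows of its transcripts (the read length after trimming) that also occur in a transcript of another gene was counted. No window was shared in 93 members, and in 12 members at least 10% were. The highest shares were in Zfp524 (44.1%, with Gm44973), Zfp617 (36.9%, with Gm18180), Zfp971 (34.1%) and Zfp970 (31.6%). For Zfp932, which silences endogenous retroviruses in mouse embryonic stem cells, 27.1% of windows were shared, mostly with its close relative Gm15446. How the authors' counting divided reads between such genes is not given in the sources used here, so the levels of these 12 are uncertain.

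The level of a typical member varied with the library. WT replicate 2 was the lowest library in 105 of the 155 members (67.7%, against 78.4% of tested genes). WT replicate 1 was highest in 62 members (40%, against 24.9% of tested genes) and HET replicate 2 in 54 (34.8%, against 56.3% of tested genes). The summed level of the members was 391, 419 and 385 FPKM in HET replicates 1, 2 and 3, and 422, 353 and 401 FPKM in WT replicates 1, 2 and 3, so the groups overlapped. Median-of-ratios size factors, computed over all tested genes, were highest in HET replicate 2 (1.14) and lowest in WT replicate 2 (0.840). The members deviated less than all tested genes in both. In HET replicate 2 their median deviation from the gene mean was 0.064 on the log2(FPKM + 1) scale, against 0.13 for all tested genes, and in WT replicate 2 it was -0.11 against -0.18.

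The coefficient of variation over the 6 libraries was 10% in the median member and 12.7% in the median tested gene. After scaling the medians were 7.88% in members and 7.55% in tested genes. As deposited the lowest value was 3.07% in Zfp287, with 1.23, 1.15 and 1.20 FPKM in HET and 1.13, 1.19 and 1.18 FPKM in WT. After scaling Zfp287 stood at 12.4%, and the lowest value was 2.05% in Zfp715. At the other end as deposited were Zfp488 at 47.0%, Zfp109 at 24.7% and Zfp688 at 23.4%.

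**Figure D3:**
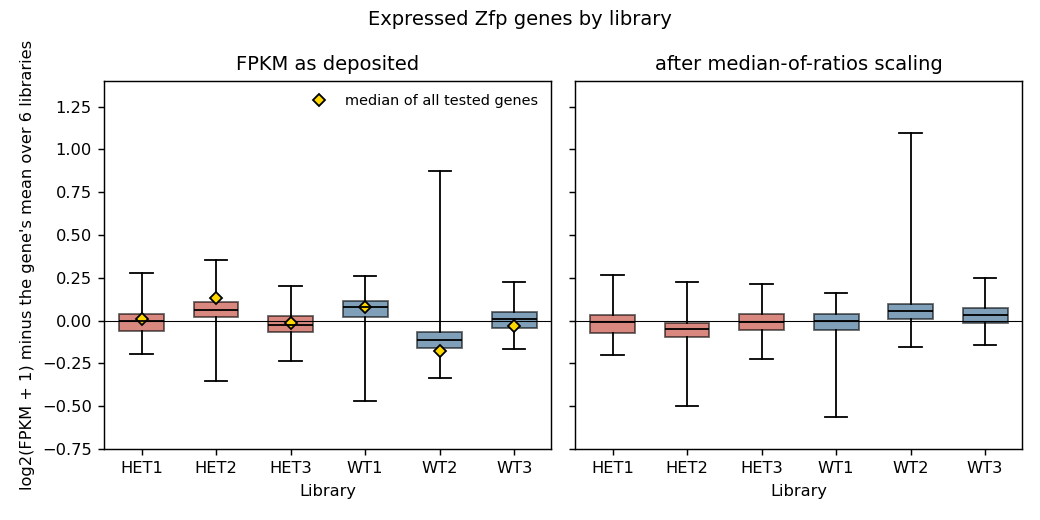
Deviation of the 155 members from their own mean over the 6 libraries on the log2(FPKM + 1) scale, by library, for FPKM as deposited (left) and after median-of-ratios scaling (right); boxes are quartiles with the median, whiskers reach the extremes and diamonds (left) are the median of all tested genes. As deposited, WT replicate 2 has the lowest median of the members (-0.11); after scaling it has the highest (0.054) and HET replicate 2 the lowest (-0.052).

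The comparison of HET with WT cerebellum asked whether the level of any member differed with the genotype. No member passed an adjusted p of 0.05 in limma with Benjamini-Hochberg adjustment over the 6358 tested genes, where 0.0786% of all genes did, 0.0157% higher and 0.0629% lower in HET. The smallest adjusted p among the members was 0.90. At an unadjusted p under 0.05 there were 2 members (1.29%), Zfp688 higher and Zfp488 lower in HET, against 3.33% of all tested genes (2.58% higher and 0.755% lower in HET). The range of log2 differences, HET minus WT in mean log2(FPKM + 1), was -0.42 to 0.19 with a median SE of 0.11. A difference is on that scale throughout, and it understates the change of genes near 1 FPKM.

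Among genes of at least 1 FPKM, the median difference of the members was below that of all tested genes. As deposited, the mean was higher in HET in 102 members and lower in 53, a share of 65.8% higher against 83.1% of all tested genes. The median difference was 0.022 in the members and 0.083 in all tested genes. After median-of-ratios scaling, 33 members were higher and 122 lower in HET (78.7% lower, against 50.9% of all tested genes lower and 49.1% higher), with medians of -0.055 in the members and -0.0014 in all tested genes. The direction of the typical member therefore depended on the scaling, and its distance from all tested genes was -0.061 as deposited and -0.053 scaled. With no filter on low values the distance was 0.014 as deposited, on the other side of 0. Without WT replicate 2 and HET replicate 2 the scaled distance was -0.024 and the split 56 higher and 99 lower. As deposited without WT replicate 2, 58 members were higher and 97 lower in HET, with a median of -0.031. No test was made of the list as a whole.

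**Figure D4:**
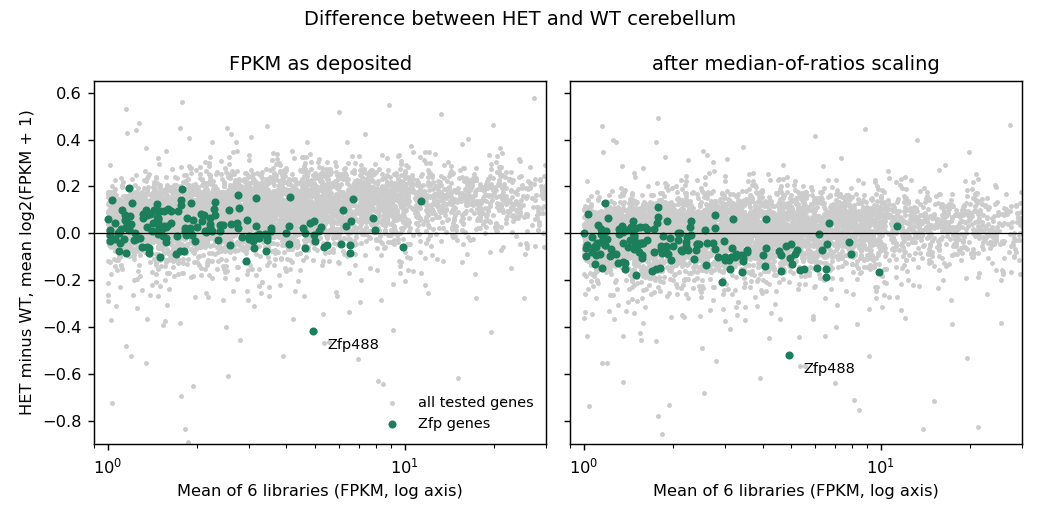
Difference in mean log2(FPKM + 1), HET minus WT, against mean level (FPKM, log axis) for tested genes (grey) and the 155 members (green), as deposited (left) and after median-of-ratios scaling (right); the axes leave out the most abundant genes and a few large differences, none of them members. The members lie around 0.022 on the left and around -0.055 on the right, and Zfp488 stands apart below them.

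Groups that did not overlap were few as deposited. All 3 HET libraries lay above all 3 WT libraries in Zfp707, Zfp941 and Zfp764 (1.94% of members, against 4.81% of tested genes), and in no member did they all lie below (against 0.739%). In either direction the share of tested genes was 5.55%. Zfp707, a KRAB gene on chromosome 15, had 1.05, 1.24 and 1.12 FPKM in HET and 1.04, 0.852 and 0.916 FPKM in WT. The closest libraries, HET replicate 1 and WT replicate 1, nearly met. Its difference was 0.14 (SE 0.086, limma adjusted p = 0.90; two-sided exact permutation p = 0.1, the smallest that 3 against 3 libraries allow).

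Zfp941, a KRAB gene on chromosome 7, had 1.31, 1.30 and 1.31 FPKM in HET and 1.16, 1.11 and 1.05 FPKM in WT. The HET values were nearly equal, and the difference was 0.13 (SE 0.090, limma adjusted p = 0.90, exact permutation p = 0.1). Its groups overlapped after scaling. Zfp764 had 2.38, 2.22 and 2.28 FPKM in HET and 2.14, 2.20 and 2.09 FPKM in WT, a difference of 0.067 (SE 0.11, limma adjusted p = 0.90, exact permutation p = 0.1). That difference turned to -0.016 after scaling, and 14.0% of its windows are shared with other genes.

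Zfp688 lies close to Zfp764 on chromosome 7 and encodes a KRAB protein with 2 finger matches. It had the largest positive difference, with 1.28, 1.66 and 1.04 FPKM in HET and 1.18, 0.873 and 1.03 FPKM in WT. Zfp688 also had the fewest reads of all members, about 23.8 to 45.6 per library. Counting error alone was 20.5% of the value in its lowest library. HET replicate 3 lay within the range of WT, so the groups overlapped. The difference was 0.19 (SE 0.095, unadjusted limma p = 0.045, adjusted p = 0.90, exact permutation p = 0.2), and it was 0.093 without HET replicate 2. The next 5 by p were Zfp109 at 0.19, Zfp707, Zfp941, Zfp330 at 0.16 and Zfp365 at 0.14. Zfp109, Zfp330 and Zfp365 had overlapping groups as deposited and an adjusted p of 0.90 in limma. Zfp365 (DBZ) binds DISC1 and acts in neurons and oligodendrocytes. The largest values of these 3 were in HET replicate 2, 2.51 FPKM for Zfp109, 3.43 FPKM for Zfp330 and 2.22 FPKM for Zfp365.

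Zfp488 had the largest negative difference. It encodes a protein that cooperates with Olig2 in oligodendrocyte differentiation. It had 4.41, 3.38 and 3.81 FPKM in HET replicates 1, 2 and 3, and 3.04, 9.24 and 5.53 FPKM in WT replicates 1, 2 and 3. WT held both the lowest and the highest library, and the HET libraries lay between them. The means were 3.86 ± 0.52 FPKM in HET and 5.94 ± 3.12 FPKM in WT (SD, n = 3 each), a difference of -0.42 (SE 0.17, unadjusted limma p = 0.015, adjusted p = 0.90, exact permutation p = 0.4). The coefficient of variation was 47.0% in Zfp488, against 12.7% in the median tested gene. Because limma draws the SE towards that of genes of like level, its p-values understate the spread of Zfp488. Single libraries decided the difference. Without WT replicate 1 it was -0.76 and passed (limma adjusted p = 2.5e-05), and without WT replicate 2 it was -0.083 (limma adjusted p = 1.0). Over 16 other settings the adjusted p in limma ranged from 2.5e-05 to 1.0.

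Other oligodendrocyte genes did not follow the order of Zfp488. Mbp, which encodes myelin basic protein, stood at 9.24, 10.7 and 9.64 FPKM in HET replicates 1, 2 and 3 and 11.2, 6.82 and 8.57 FPKM in WT replicates 1, 2 and 3. Mag, an adhesion protein of myelin, stood at 10.1, 13.6 and 10.3 FPKM in HET and 11.3, 7.25 and 9.03 FPKM in WT. Both were lowest in WT replicate 2, where Zfp488 was highest. Mog, a protein of the myelin surface, was also lowest there, at 4.18, 4.57 and 3.98 FPKM in HET and 4.14, 2.99 and 3.06 FPKM in WT. That library was the lowest for 78.4% of all tested genes. After scaling Mbp and Mag were still lowest in WT replicate 2, at 8.11 and 8.63 scaled FPKM, but Mog was not, at 3.56 there against 3.14 in WT replicate 3. Zfp24, the other member known from myelination, stood at 7.07, 8.03 and 6.22 FPKM in HET and 7.01, 5.47 and 6.47 FPKM in WT, a difference of 0.15 (SE 0.14, limma adjusted p = 0.90) with overlapping groups. In bulk tissue fewer cells of a type and less RNA per cell cannot be told apart. Of the windows of Zfp488, 10.7% are shared with other genes, 5.96% with 4930533N22Rik.

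After Zfp488 the smallest p among members lower in HET belonged to Zfp692, Zfp329, Zfp276, Zfp949 and Zfp428, with differences of -0.10, -0.12, -0.083, -0.085 and -0.076 and a limma adjusted p of 0.90 each. Zfp692, a regulator of hepatic glucose production, stood at 1.64, 1.39 and 1.20 FPKM in HET and 1.53, 1.76 and 1.46 FPKM in WT. Zfp329 stood at 2.49, 3.03 and 2.79 FPKM in HET and 3.00, 2.94 and 3.34 FPKM in WT. The groups of all 5 overlapped. The difference of Zfp428 turned to 0.0095 without WT replicate 1, its highest library.

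**Figure D5:**
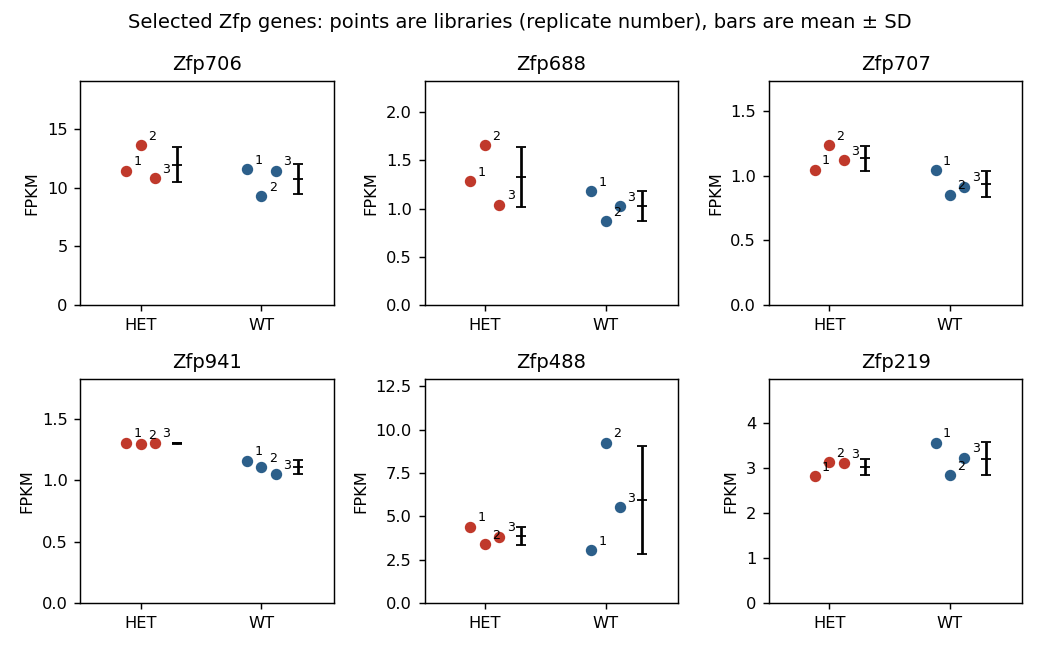
Level (FPKM) of 6 members in each library, with the replicate number beside each point and bars for the mean ± SD (n = 3). HET lies above WT with no overlap in Zfp707 and Zfp941, and the WT libraries of Zfp488 spread from 3.04 to 9.24 FPKM.

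After scaling, 24 members had groups that did not overlap, 3 with HET above and 21 with HET below WT (13.5% of members below, against 5.14% of tested genes below, 5.74% above and 10.9% in either direction). None passed in limma with adjustment (adjusted p of at least 0.78), where 0 of all tested genes did, and 10 members, all lower in HET, had an unadjusted p under 0.05 (6.45%, against 3.05% of tested genes lower in HET, 2.06% higher and 5.11% in either direction). Zfp646, which lies in the same run on chromosome 7 as Zfp688, stood at 4.20, 4.26 and 4.42 scaled FPKM in HET and 4.82, 4.95 and 4.99 in WT. Its scaled difference was -0.16 (SE 0.047, limma adjusted p = 0.78). Zfp219, a partner of Sox9 in cartilage, stood at 2.80, 2.76 and 3.16 scaled FPKM in HET and 3.30, 3.38 and 3.33 in WT, a scaled difference of -0.15 (SE 0.055, limma adjusted p = 0.78). As deposited both genes had overlapping groups, with differences of -0.065 each. Zfp646 and Zfp574 were chosen after their values were seen, as were Zfp287, Zfp715 and Zfp764.

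Zfp574 stood at 3.08, 3.05 and 3.33 scaled FPKM in HET and 3.64, 3.60 and 3.71 in WT, with no overlap and a scaled difference of -0.16 (SE 0.049, limma adjusted p = 0.78). As deposited its difference was -0.074, and the groups overlapped.

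Members listed for roles in RNA and translation were a small part of the whole. Of 11 Zfp genes so listed, 9 were members and none passed in limma (0 at an unadjusted p under 0.05). These members include Zfp706, Zfp207 and Zfp91, which are described above by other roles. In HET the mean was higher in 5 and lower in 4, with a median of 0.020, and after scaling in 2 and 7, with a median of -0.047. Of all tested genes 83.1% were higher in HET as deposited and 49.1% after scaling. Zfp598, a ubiquitin ligase that senses collided ribosomes, stood at 2.73, 2.83 and 2.03 FPKM in HET and 2.85, 2.38 and 2.68 FPKM in WT. Zfp106, an RNA-binding protein whose loss in mice leads to motor neuron degeneration, stood at 3.57, 4.44 and 3.94 FPKM in HET and 4.45, 3.30 and 4.75 FPKM in WT. Zfp36 was near the minimum, at 1.12, 1.24 and 1.00 FPKM in HET and 1.25, 1.11 and 0.915 FPKM in WT. The groups of all 3 overlapped. Zfp346, a protein that binds double-stranded RNA, and Zfp326 lay under the minimum, at 0.808 and 0.320 FPKM.

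Of 17 listed genes with neural or developmental roles found in the files, 11 were members and none passed in limma. In HET the mean was higher in 5 and lower in 6, with a median of -0.021, and after scaling in 3 and 8, with a median of -0.090. The shares of all tested genes higher in HET were 83.1% as deposited and 49.1% scaled. As deposited Zfp488 alone had an unadjusted p under 0.05. Zfp335, which is needed in neural progenitors, stood at 1.39, 1.37 and 1.06 FPKM in HET and 1.30, 1.27 and 1.34 FPKM in WT. Zfp110 (NRIF), which binds the neurotrophin receptor p75, stood at 1.69, 2.05 and 1.69 FPKM in HET and 1.80, 1.53 and 1.57 FPKM in WT. Regulators known from brain development that lay under the minimum were Zfp521 at 0.561 FPKM, Zfp462 at 0.310 FPKM, Zfp536 at 0.163 FPKM and Zfp423, which is required for the cerebellar vermis, at 0.136 FPKM.

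Of the 7 genes listed for imprinting or retroelement silencing, 2 were members. Zfp445, which maintains imprints in mouse embryos, stood at 4.66, 5.95 and 5.54 FPKM in HET and 5.54, 4.97 and 6.33 FPKM in WT, a difference of -0.051 (SE 0.14, limma adjusted p = 0.93). Zfp932 stood at 1.80, 2.05 and 1.87 FPKM in HET and 1.92, 1.70 and 2.03 FPKM in WT, a difference of 0.012 (limma adjusted p = 0.98) that turned to -0.065 after scaling. Both genes had overlapping groups. The retroviral silencer Zfp809 (0.667 FPKM), the repressor of the placental Igf2 promoter Zfp568 (0.247 FPKM), the imprint regulator Zfp57 (0.230 FPKM), Zfp708 (0.144 FPKM) and the stem cell gene Zfp42 (Rex1, 0.002 FPKM) lay under the minimum.

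The partners through which KRAB zinc fingers act were present. Of 20 listed genes of the corepressor machinery, 15 were tested and none passed in limma (0 at an unadjusted p under 0.05). The mean was higher in HET in 12 and lower in 3, with a median of 0.029. Of all tested genes 83.1% were higher, with a median of 0.083. Trim28 stood at 19.3, 22.7 and 15.6 FPKM in HET and 18.9, 14.4 and 16.3 FPKM in WT, above every member, with a difference of 0.19 (SE 0.16, limma adjusted p = 0.90). Setdb1 stood at 1.26, 1.23 and 1.06 FPKM in HET and 1.24, 1.07 and 1.26 FPKM in WT, and the heterochromatin protein gene Cbx3 averaged 9.28 FPKM in HET and 8.53 FPKM in WT. The groups of these genes overlapped. After scaling 3 of the 15 were higher and 12 lower in HET, with a median of -0.035, against 50.9% of all tested genes lower.

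Zinc finger genes under other names were tested in the same fit. The 16 tested Zfp symbols that end in letters had a median of 0.012 as deposited and -0.052 scaled. After scaling 14 of them were lower in HET, against 50.9% of all tested genes. The 21 tested Zbtb genes had medians of 0.030 and -0.037, and the 9 tested Zkscan and Zscan genes 0.034 and -0.045. The 5 tested Klf genes had medians of 0.059 and -0.044. None of these genes passed in limma, and Klf10 alone, named for that reason, had an unadjusted p under 0.05 (difference 0.24, adjusted p = 0.90). Zbtb18, a transcriptional repressor needed in cortical and cerebellar development, was far above any member at 131, 121 and 96.3 FPKM in HET and 97.1, 102 and 92.3 FPKM in WT, with overlapping groups.

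Differences were also set out by protein class and position. KRAB members had a median difference of 0.026 as deposited and -0.048 scaled, and members with fingers and no KRAB match 0.013 and -0.063. In members in runs the medians were 0.022 and -0.054, and in members alone 0.021 and -0.060. The run of Zfp87, Zfp748, Zfp738, Zfp65 and Zfp85 on chromosome 13 had all 5 members higher in HET as deposited. Their median was 0.063, against 0.083 in all tested genes, of which 83.1% were higher. After scaling 4 of these 5 were lower, with a median of -0.010, against 50.9% of all tested genes lower. The run of Zfp26, Zfp426, Zfp266 and Zfp846 on chromosome 9 had 1 higher and 3 lower as deposited and 4 lower after scaling. The 12 members with at least 10% of windows shared had medians of -0.019 and -0.097, against 0.024 and -0.053 in the other 143. No test was made between these classes.

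Tissue markers and depth were checked once for the whole series. The sum of the 5 granule cell markers was 415 to 458 FPKM in HET and 390 to 466 FPKM in WT, and that of the 4 Purkinje cell markers 215 to 224 FPKM in HET and 165 to 233 FPKM in WT. The forebrain gene Neurod6 stood at 0.84 to 0.91 FPKM in HET and 0.53 to 1.08 FPKM in WT. The 5 choroid plexus markers summed to 3.58, 163 and 7.01 FPKM in HET replicates 1, 2 and 3 and to 285, 0.775 and 157 FPKM in WT replicates 1, 2 and 3, so this adjacent tissue differed within both groups, and its part in the members' values was not tested. Small RNA genes took 7.34% to 21.7% of the summed FPKM in HET and 10.2% to 21.5% in WT. Zfp488 was at 3.81 FPKM in HET replicate 3 and at 9.24 FPKM in WT replicate 2, the 2 libraries with the highest small RNA share. It was lowest in WT replicate 1, which had the highest choroid plexus sum, and highest in WT replicate 2, which had the lowest. WT replicate 3, with a sum of 157 FPKM, had the next highest Zfp488 value, 5.53 FPKM. A relation of Zfp488 to either measure was not tested.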

How the data were processed

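The members and gene lists were chosen with earlier results of these data known. RNA-seq libraries were single-end and made with a stranded total RNA kit, per the labels' protocols. Values are FPKM as deposited by the authors, from TopHat2 with Bowtie alignment to mm10 and Cufflinks quantification, per the labels' protocols. For the annotation release and the strand setting, the sources used here give none. In the file of HET replicate 2, 40 genes, none of them members, held dates instead of values and were left out.

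Genes averaging 1 FPKM or more were tested on log2(FPKM + 1) in R 4.3.3, using limma 3.58.1 with its trend option (54.4 prior and 4 residual degrees of freedom) and Benjamini-Hochberg adjustment over all 6358. With this many prior degrees of freedom, the limma SE and p of a gene rest mostly on the spread of tested genes at its level. Exact permutation tests were two-sided and used the values of the gene alone. Simulated data for this comparison held 6358 genes, 200 of them changed 2-fold in FPKM + 1. In them limma recovered 95.3% with 7.1 false calls per run over 10 runs, and made 0 calls where none had changed. At the low levels of the members such a step is more than 2-fold in FPKM. Noise was drawn for each gene separately, without shifts of whole libraries, so recovery and false calls in the real data can differ. FPKM is not a count, so no count test was run. Read depth was estimated from the mode of the steps between low values. Other settings were scaling (median of ratios, quantile, or without small RNA genes), pseudocounts, minimum levels, the trend, the replicate number as a block and leaving out each library.

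Named members were the 10 highest, the 6 with the smallest p in each direction, the 4 on each side of the minimum, and role list examples; a few others are marked in the text as chosen after their values were seen. All 155 members matched 1 position in GENCODE M21. Fingers were counted in open frames translated from its transcripts with a pattern of paired cysteines and histidines, because the protein table planned for it was not used here, and KRAB A boxes with a longer and a shorter pattern. Replicate numbers were not taken to pair libraries. Python 3.11.15, pandas 2.3.3 and matplotlib 3.10.9 were used.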

Additional observations from a re-analysis of the deposited data

How the results depend on the processing

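The number of members past an adjusted p of 0.05 in limma stayed at 0 in every alternative except 1 without WT replicate 1 (0 to 1 over single left-out libraries). Counts over all tested genes were 5 as reported and 5 to 62 with a library left out (62 without WT replicate 1). They were 0 with a minimum of 0.5 FPKM, without the intensity trend, after median-of-ratios scaling (also with the replicate block), after quantile normalization and after leaving out small RNA genes. They were 1 with no filter on low values, 8 with a minimum of 2 FPKM and 2 after scaling without WT replicate 2 and HET replicate 2. Same-numbered libraries did not deviate together (correlations of -0.29, -0.51 and 0.13 after scaling), and pairs with different numbers ran from -0.41 to 0.49. Deviations from the mean of 3 libraries are tied to each other, so these values cannot show whether libraries were paired. With the replicate block 13 genes and 0 members passed. The cause of these changes was not tested.

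Members at an unadjusted p under 0.05 numbered 10 after scaling, 13 with scaling and the replicate block, 10 after quantile normalization, 12 without small RNA genes, 1 with the replicate block alone, 1 with a pseudocount of 0.1, 1 with a minimum of 2 FPKM, 1 with no filter, 0 with a minimum of 0.5 FPKM, 0 without the trend and 0 to 3 with a library left out. Members with a higher mean in HET numbered 33 after scaling (with or without the block), 43 after quantile normalization, 30 without small RNA genes, 56 after scaling without WT replicate 2 and HET replicate 2, 43 of 69 with a minimum of 2 FPKM, and 58 to 123 with a library left out (58 without WT replicate 2). Members whose groups did not overlap numbered 24 after scaling (with or without the block), 17 after quantile normalization, 23 without small RNA genes, 54 after scaling with 2 libraries fewer in all, 1 with a minimum of 2 FPKM and 5 to 37 with a library left out (37 without WT replicate 1), where fewer libraries overlap less often by construction. After scaling, groups did not overlap in 15.5% of members, against 10.9% of all tested genes. An unadjusted p under 0.05 was met by 6.45% against 5.11%, and a higher mean in HET by 21.3% against 49.1%. For the other alternative settings the share of all tested genes is not given, so those counts describe the members alone. The median difference of the members was -0.055 after scaling (with or without the block) and -0.064 without small RNA genes. With a library left out it was -0.031 to 0.063. Its distance from all tested genes was 0.014 with no filter, where genes near 0 FPKM enter the comparison, and -0.086 to -0.037 with a library left out.

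Every setting was run for the 10 highest members and the 6 with the smallest p in each direction, and among these the direction turned as follows, in no case with an adjusted p under 0.05. After scaling, with or without the block, the difference was -0.090 for Zfp260, -0.038 for Zfp422, -0.048 for Zfp768, -0.069 for Zfp740 and -0.0037 for Zfp91. After quantile normalization it was -0.100 for Zfp260, -0.044 for Zfp422, -0.062 for Zfp768, -0.072 for Zfp740 and -0.0077 for Zfp91. Without small RNA genes it was -0.10 for Zfp260, -0.051 for Zfp422, -0.061 for Zfp768, -0.082 for Zfp740 and -0.017 for Zfp91. After scaling without WT replicate 2 and HET replicate 2, a setting chosen after seeing the data like scaling with the block, it was -0.0099 for Zfp706, -0.083 for Zfp260, -0.042 for Zfp422, -0.022 for Zfp768, -0.076 for Zfp740, -0.014 for Zfp109 and 0.018 for Zfp488. With a library left out the ranges were -0.11 to 0.15 for Zfp260, -0.024 to 0.16 for Zfp422, -0.047 to 0.12 for Zfp768, -0.044 to 0.10 for Zfp740, -0.13 to 0.0095 for Zfp428 and -0.15 to 0.0011 for Zfp612. Of the members in the role lists outside those, run as deposited and scaled only, Zfp36, Zfp622, Zfp148, Zfp644 and Zfp932 turned after scaling, to -0.043, -0.047, -0.028, -0.072 and -0.065. The depth limits low members most, with counting errors of up to 20.5% in a library.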
